A study of Mus musculus with 4 samples.

Results

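The genes described here are 33 mouse genes of glucose breakdown and of the response to low oxygen, chosen by gene symbol, with every probe that maps to a listed symbol taken in. They form 2 arms, 20 glycolytic steps from glucose entry to lactate export and 13 other hypoxia-inducible genes, out of 36838 gene names on the array. NIH-3T3 cells, an established line of mouse embryonic fibroblasts, were grown until confluent in medium with serum, with no low-oxygen step named. The untreated culture received no addition, and the other 3 cultures received 20 µM of AR7, CA39 or CA77 for 24 h. AR7 is a small molecule that activates chaperone-mediated autophagy, in which lysosomes take up proteins one by one, and CA39 and CA77 are analogues developed from it. Each culture was read on 1 single-colour Agilent array, so every difference below sets 1 array against another, has no replicate check and carries no p-value. Compounds came in DMSO and the control is labelled as having no treatment, so vehicle and compound cannot be told apart where all 3 treated cultures differ from the untreated one.

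Glycolysis turns glucose into pyruvate in the cytosol, and lactate dehydrogenase and a monocarboxylate carrier dispose of the pyruvate as lactate when mitochondria do not take it up. Many of these enzymes, together with genes of blood vessel growth, acid handling and mitochondrial turnover, are classical targets of hypoxia-inducible factor 1 (HIF-1). HIF-1 binds DNA at hypoxia response elements, and its alpha subunit is destroyed in the presence of oxygen after prolyl hydroxylases of the EGLN family have marked it. The HIF-1 alpha protein is therefore controlled mostly after translation, and its mRNA, the only form read here, says little about its amount.

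Values are log2 normalized intensities of 1 probe per gene, the brightest by its mean of all 4 arrays, and a difference is the log2 value of one array minus that of another. Probes bind with different strength, so levels are compared between arrays and never between genes. Probes printed 10 times on each array gave a spot tolerance of 0.16 for a difference (log2), which covers error within an array and not error between cultures. A gene was counted as past 1.5-fold when its difference reached 0.585 up or down and the probe was well above background on at least 1 of the 2 arrays. Of 55378 probes, between 52.2% (CA39) and 69.7% (untreated) were well above background. The untreated array lay in another row of the slide than the 3 treated arrays, and CA77 was read in a second scan, so neither position can be told apart from treatment. Of the 33 genes, 30 were well above background on all 4 arrays. Pfkfb3 was above background with CA39 alone, and Egln3 and Mxi1 were above background on none. Of 9 fibroblast markers, 8 were above background on every array, and Pdgfrb was so only with CA39. Of 7 markers of other cell types, the endothelial genes Pecam1 and Cdh5 and the muscle gene Des were also above background on every array, while of the epithelial genes Cdh1 was above background on none and Epcam with CA39 alone. Leukocyte Ptprc and neuronal Rbfox3 were above background on the untreated and CA77 arrays.

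The short HIF-1 recognition core was looked for in the promoters of the 33 genes. The core was searched as ACGTG and GCGTG on both strands, so that it also appears as CACGT and CACGC, and a CACGTG run counts once on each strand. RefSeq promoters of mouse assembly GRCm38.p6, 250 bases before and 50 bases after a start, were held for 31 of the 33 genes (not for Bnip3l and Ndrg1). The core was found at 37 of their 49 starts (75.5%), against 14380 of 32851 starts (43.8%) of all genes. The 150 bases before the start are shown for 5 genes. Car9 and 1 of 2 Slc16a3 probes were higher with CA39, Adm was lower with CA39, Bnip3 lay just inside the 1.5-fold limit with CA39, and Pgk1 is a textbook HIF-1 target that differed little on any array. Car9 lies at chr4:43506876-43507025 (plus strand), Slc16a3 at chr11:120948917-120949066 (plus), Adm at chr7:110627507-110627656 (plus), Pgk1 at chrX:106186950-106187099 (plus) and Bnip3 at chr7:138909507-138909656 (minus). Sequences run 5′ to 3′ along the gene, and capitals mark the core.
Car9: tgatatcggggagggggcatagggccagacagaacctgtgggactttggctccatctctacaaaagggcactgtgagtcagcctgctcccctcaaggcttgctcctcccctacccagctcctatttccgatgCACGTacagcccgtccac
Slc16a3: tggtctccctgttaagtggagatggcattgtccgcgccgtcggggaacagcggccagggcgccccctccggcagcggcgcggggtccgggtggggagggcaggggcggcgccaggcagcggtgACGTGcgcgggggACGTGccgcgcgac
Adm: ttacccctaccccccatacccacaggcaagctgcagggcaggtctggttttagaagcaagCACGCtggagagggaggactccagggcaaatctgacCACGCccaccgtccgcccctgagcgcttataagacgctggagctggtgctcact
Pgk1: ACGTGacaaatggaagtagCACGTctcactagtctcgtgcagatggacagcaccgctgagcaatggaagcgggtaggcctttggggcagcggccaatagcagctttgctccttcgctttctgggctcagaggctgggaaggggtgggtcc
Bnip3: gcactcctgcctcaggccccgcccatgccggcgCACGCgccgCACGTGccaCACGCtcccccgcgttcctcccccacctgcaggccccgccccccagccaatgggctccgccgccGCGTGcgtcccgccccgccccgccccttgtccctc
The core stood once in the Car9 stretch, at 2 places each in those of Slc16a3, Adm and Pgk1, and at 5 in that of Bnip3. A core is thus present both in Car9, higher with CA39, and in Adm, lower with it, and a match of letters does not show that HIF-1 is bound.

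The 3 compounds differed in how many of these genes stood apart from the untreated culture. With AR7, 0 of 30 compared members were past 1.5-fold in either direction, where 3.26% of all genes compared were past it higher and 1.45% lower. With CA77, 0 of 30 were past it, beside 3.74% higher and 2.73% lower. With CA39, 5 of 31 were past it higher (Pfkfb3, Slc16a3, Vegfa, Car9 and Ndrg1) and 1 lower (Adm), beside 6.91% and 3.94% of all genes. Pfkfb3 entered the comparison only through the CA39 array, and among the 30 members above background on all arrays 4 were higher and 1 lower, beside 5.6% and 4.55% of such genes. Of the 5, Car9 and Pfkfb3 were past 2-fold higher, which 3.69% of all genes were. Pfkfb3 fell under 2-fold, at 0.97 (log2), with an offset of 50 in the background correction. In RNA of whole cultures, fewer cells that express a gene and less of its RNA per cell cannot be told apart.

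Within the spot tolerance of the untreated array lay 20 of 30 members with AR7 (66.7%, against 67.5% of all genes compared), 18 of 30 with CA77 (against 55.1%) and 9 of 31 with CA39 (29.0% against 51.9%, or 42.9% of genes above background on all arrays). For AR7, CA39 and CA77 in turn, the glycolytic steps had a median difference of 0.01, 0.17 and -0.01, and the other hypoxia-inducible genes one of -0.01, 0.39 and 0.12. The medians over all genes were 0.00, 0.00 and -0.01. These medians and the shares of all genes compared include differences set to 0 because the higher side was below background. No compared member was set to 0, so the backgrounds are not fully alike. With the processed signal at the 75th percentile, the glycolytic median with CA39 was 0.07 and that of the hypoxia-inducible arm 0.37.

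**Figure D1:**
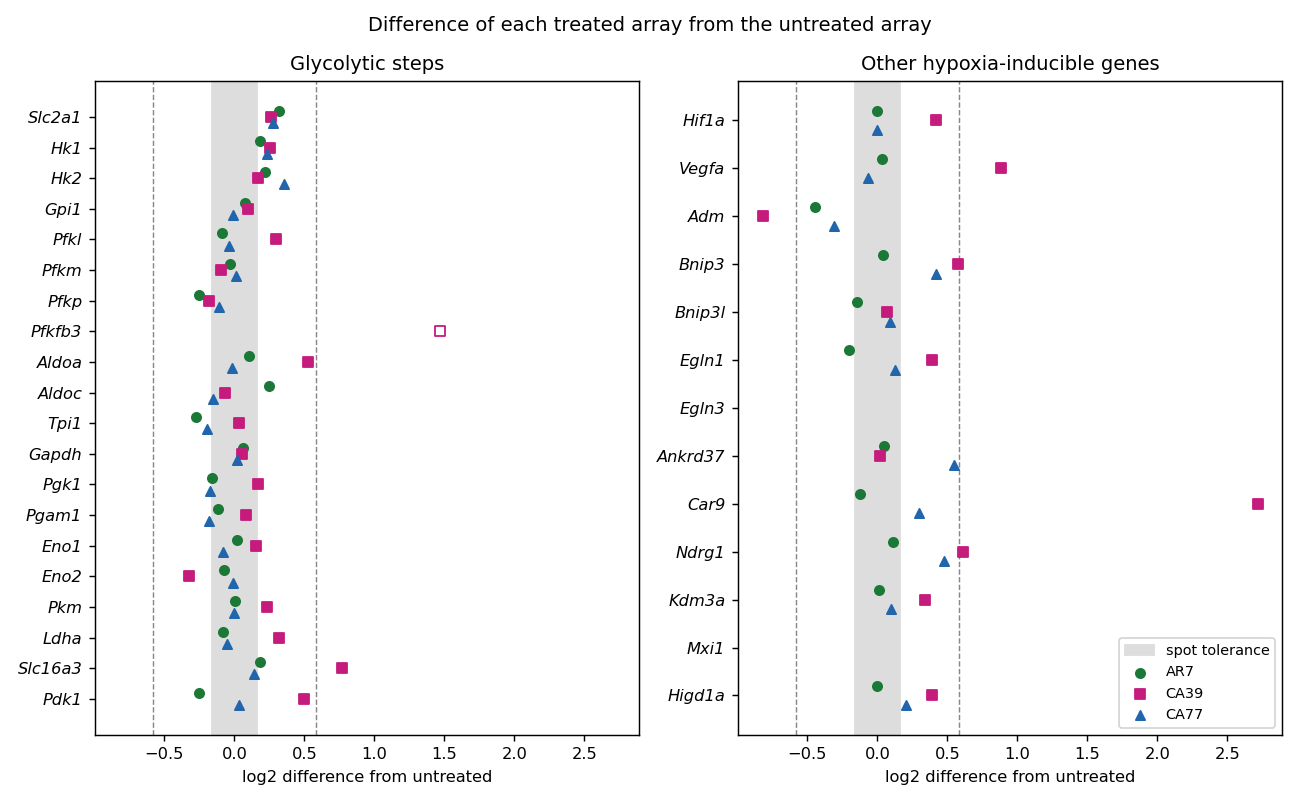
Log2 difference of each treated array from the untreated array (x axis) for the 33 genes (y axis), with glycolytic steps on the left and other hypoxia-inducible genes on the right. Each point is 1 array, an open point is a lower bound, the grey band is the spot tolerance of 0.16 and dashed lines mark 1.5-fold; CA39 points lie beyond the dashed lines for Pfkfb3, Slc16a3, Vegfa, Adm, Car9 and Ndrg1, and no AR7 or CA77 point does.

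Glucose entry and phosphorylation were slightly higher on all 3 treated arrays. Slc2a1, the glucose transporter GLUT1, read 14.09 on the untreated array, 14.41 with AR7, 14.36 with CA39 and 14.37 with CA77. Untreated was lowest, and the 3 treated ones lay within the tolerance of each other. With CA77 the 22 spots next to Slc2a1 had a median difference of 0.16, and 6 of them were past 2-fold higher. Hk2, the inducible hexokinase, read 12.79 untreated, 13.01 with AR7, 12.96 with CA39 and 13.14 with CA77. Hk1, the constitutive hexokinase, was 0.18, 0.25 and 0.23 above untreated with AR7, CA39 and CA77, but its second probe gave -0.02, -0.12 and 0.09. These were the 3 members of 30 above untreated by over the tolerance with every compound, as were 3.67% of genes above background on all arrays. All 3 comparisons share the untreated array. With the scanner software's processed signal 2 members, Slc2a1 and Hk2, kept that order after quantile normalization, and 0 did when each array was set to its 75th percentile instead, so it depends on the signal and the scaling used. Hk2 also lost that order with the local median taken off, where the 3 members were Slc2a1, Hk1 and Hif1a.

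The steps from glucose phosphate to triose phosphate held 1 gene that stood out, the regulator Pfkfb3. Its enzyme makes the sugar bisphosphate that activates phosphofructokinase. It read 5.28 on the untreated array, 5.28 with AR7 and 5.18 with CA77, all below background, and 7.35 with CA39. Against the floor of the untreated array, the 1st percentile of its detected signal, this is at least 2.77-fold higher with CA39 than untreated. The bound depends on the background correction, and was 0.97 (log2) with an offset of 50. A second Pfkfb3 probe was above background on no array. The phosphofructokinase subunits themselves moved little. Pfkl, the liver-type subunit, was 0.29 above untreated with CA39 and within the tolerance with AR7 (-0.09) and CA77 (-0.04). Pfkp, the platelet type, was 0.26 below untreated with AR7, 0.18 below with CA39 and 0.11 below with CA77. Pfkm, the muscle type, and the isomerase Gpi1 lay between -0.09 and 0.10 with every compound. Aldoa, the main aldolase of most tissues, was 0.53 above untreated with CA39, against 0.10 with AR7 and -0.02 with CA77. Aldoc, the aldolase best known from brain, was instead highest with AR7, at 0.25 above untreated, and lay at -0.07 with CA39 and -0.15 with CA77. Tpi1, which interconverts the triose phosphates, was 0.28 below untreated with AR7 and 0.20 below with CA77, and lay at 0.04 with CA39.

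The enzymes of the payoff phase differed from untreated by at most 0.32 with any compound. Gapdh, the dehydrogenase often taken as a loading control, read 18.56 untreated, 18.62 with AR7, 18.62 with CA39 and 18.58 with CA77. All 4 arrays lay within the tolerance for its brightest probe, and the 7 Gapdh probes gave differences from -0.15 to 0.22 over the 3 compounds. Pgk1, which makes the first ATP of the pathway, was 0.17 above untreated with CA39, and 0.16 below with AR7 and 0.17 below with CA77. Pgam1, the phosphoglycerate mutase, was 0.12 below untreated with AR7, 0.18 below with CA77 and 0.09 above with CA39. Eno1, the widespread enolase, lay within the tolerance with every compound (-0.08 to 0.15). Eno2, the neuron-type enolase, was 0.32 below untreated with CA39 and within the tolerance with AR7 and CA77. Pkm, pyruvate kinase, was 0.24 above untreated with CA39 and at 0.01 and 0.00 with AR7 and CA77.

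Among the genes for the fate of pyruvate, CA39 stood apart from the other 2 compounds for Pdk1, while probes disagreed for Ldha and Slc16a3. Ldha, the lactate dehydrogenase subunit that favours lactate formation, read 15.92 untreated, 15.83 with AR7, 16.24 with CA39 and 15.86 with CA77. By this probe CA39 was the highest array, 0.32 above untreated, and the other 3 lay within the tolerance of each other. A second Ldha probe lay 0.25 above untreated with CA39, and at -0.34 with AR7 and -0.44 with CA77, but with CA39 its 23 neighbours had a median difference of 0.43 and 9 of them were past 2-fold higher. Its remaining probe read 18.14 untreated, 18.20 with CA39 and 18.13 with CA77, but 2.91 and below background with AR7, where 4 of 23 neighbouring spots were also past 2-fold lower. That probe is the brightest of the 3 on the other arrays and was not chosen because of its AR7 spot. It put CA39 only 0.06 above untreated, within the tolerance, so the probes disagree on Ldha.

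Slc16a3, the lactate exporter MCT4, read 7.64 untreated, 7.82 with AR7, 8.40 with CA39 and 7.77 with CA77. CA39 was 0.77 above untreated, or 1.70-fold, and the other 2 treated arrays lay 0.18 (AR7) and 0.14 (CA77) above untreated. Its second probe did not show this, with differences of -0.15, -0.05 and -0.27 for AR7, CA39 and CA77, so the 2 probes disagree on the gene. Pdk1, the kinase that shuts pyruvate out of mitochondrial oxidation, read 11.12 untreated, 10.86 with AR7, 11.61 with CA39 and 11.15 with CA77. CA39 was 0.50 above untreated and AR7 0.25 below it, so the gap between these 2 compounds was larger than either distance from the control.

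**Figure D2:**
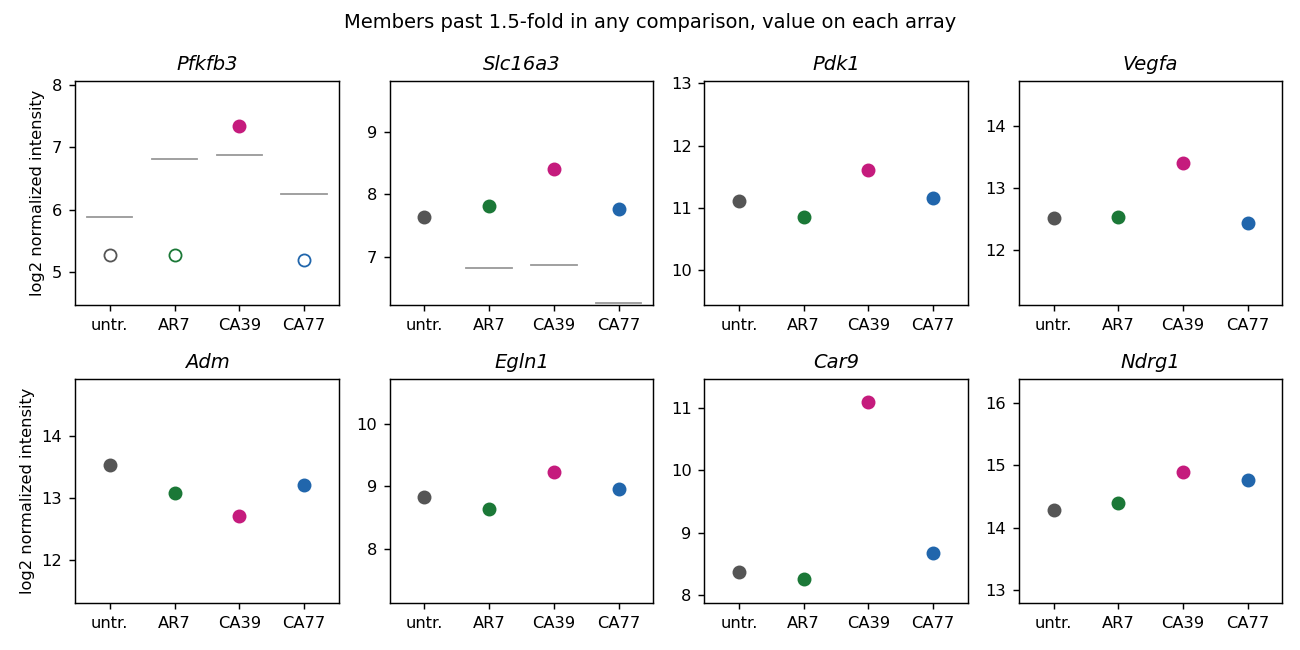
Log2 normalized intensity (y axis, each panel spanning the same range of 3.6) on the 4 arrays (x axis) for the 8 genes past 1.5-fold in any of the 6 comparisons. Filled points are well above background, open points are not, and short grey lines, where they fall in the panel, mark the floor used for bounds; CA39 is the highest array in 7 panels and the lowest for Adm.

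Among the hypoxia-inducible genes outside glycolysis, Car9 differed most. Car9 encodes a carbonic anhydrase of the cell surface that helps cells to export acid, and it is a widely used marker of hypoxia. It read 8.37 untreated, 8.25 with AR7, 11.09 with CA39 and 8.67 with CA77. With CA39 it was 6.58-fold above untreated and the other 3 arrays spanned 0.42 (log2). Car9 has a single probe here. None of its 22 neighbouring spots (0) was past 2-fold with CA39, and their median difference was -0.01.

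The secreted factors Vegfa and Adm, both classical HIF-1 targets, moved in opposite directions with CA39. Vegfa, the vascular endothelial growth factor, read 12.51 untreated, 12.54 with AR7, 13.39 with CA39 and 12.44 with CA77. CA39 was 0.88 above untreated, or 1.85-fold, while AR7 and CA77 lay within the tolerance of untreated. The second Vegfa probe gave 0.57 with CA39 and -0.03 and -0.01 with AR7 and CA77, the same direction at a smaller size. Adm, the vasodilator peptide adrenomedullin, read 13.52 untreated, 13.07 with AR7, 12.70 with CA39 and 13.21 with CA77. All 3 treated arrays were below the untreated one, by 0.45, 0.82 and 0.31, and CA39 was the lowest. Adm was the only member (1 of 30) below untreated by over the tolerance with every compound, as were 8.03% of genes above background on all arrays, and this held under each of the 5 other signals and scalings tried.

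Hif1a, which encodes the regulated HIF-1 subunit, read 12.75 untreated, 12.74 with AR7, 13.16 with CA39 and 12.74 with CA77. On the CA39 array it was 0.42 above the others, which were alike within 0.01. The 23 neighbouring spots had a median difference of -0.20 with AR7, -0.22 with CA39 and -0.22 with CA77. With the local median taken off, Hif1a lay above untreated by over the tolerance with each compound, by 0.64 with CA39, which is past the 1.5-fold limit, 0.19 with CA77 and 0.17 with AR7. Egln1, the main oxygen-sensing prolyl hydroxylase and itself a HIF-1 target, read 8.84 untreated, 8.63 with AR7, 9.23 with CA39 and 8.96 with CA77. It was lowest with AR7 and highest with CA39.

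Bnip3 and Ndrg1 were above untreated with both CA39 and CA77. Bnip3, a receptor for the removal of mitochondria by autophagy, read 14.70 untreated, 14.73 with AR7, 15.28 with CA39 and 15.12 with CA77. CA39 was 0.58 and CA77 0.42 above untreated, with AR7 within the tolerance. With the local median taken off, the CA39 difference was 0.76, past the 1.5-fold limit. A second probe gave 0.46 and 0.38, and a dim one -0.02 and -0.03. Ndrg1, a stress-inducible gene of differentiation, read 14.29 untreated, 14.40 with AR7, 14.89 with CA39 and 14.76 with CA77. Its CA39 difference of 0.61 fell to between 0.45 and 0.53 with the scanner software's processed signal or the deposited table, below the 1.5-fold limit. The CA39 array lay 0.16 above CA77 for Bnip3, at the edge of the tolerance, and 0.13 above it for Ndrg1. With the local median taken off, CA39 was above CA77 by over the tolerance for both genes. Bnip3l, a relative of Bnip3, lay within the tolerance with every compound for its brightest probe (-0.15 to 0.09). Higd1a, a mitochondrial protein induced by hypoxia, was 0.39 above untreated with CA39 and 0.21 with CA77, and its second probe gave 0.34 and 0.12. Kdm3a, a histone demethylase, was 0.34 above untreated with CA39 and at 0.01 and 0.10 with AR7 and CA77. Ankrd37, an ankyrin-repeat gene, was the member for which CA77 stood alone, at 0.55 above untreated against 0.05 with AR7 and 0.02 with CA39.

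Set directly against each other at the same dose and time, the 3 pairs of compounds did not use the untreated array. CA77 and AR7 differed past 1.5-fold in 0 members, beside 1.98% of all genes higher and 2.75% lower with CA77. CA39 was past 1.5-fold higher than AR7 in 4 members and lower in 0, beside 8.02% and 6.21% of all genes. These were Car9 by 2.84 (log2), Vegfa by 0.85, Pdk1 by 0.75 and Egln1 by 0.60, with Slc16a3 just outside at 0.58. Egln1 was under the limit with an offset of 50 in the background correction, with the processed signal under either scaling and with the deposited table. In the last 3 of these Slc16a3 was past it instead, at 0.76 to 0.90. CA39 was past 1.5-fold higher than CA77 in 4 members and lower in 0, beside 8% and 5.19%. These were Car9 by 2.42, Pfkfb3 by at least 1.09, Vegfa by 0.95 and Slc16a3 by 0.63. Pfkfb3 entered this count only through the CA39 array, while the other named genes were above background on all arrays. Car9 and Vegfa were in both sets. Pfkfb3 was left out of the set against AR7 by the higher floor of that array, with a bound of 0.53, and entered it at 2.07 with a lower floor or none. It also entered at 0.80 and 0.72 with the processed signal (quantile and 75th percentile) and at 0.59 with the local median taken off. The last setting also put Bnip3 past 1.5-fold against AR7 (0.72) and Aldoa against CA77 (0.59). Against CA77, Slc16a3 was lost with the offset of 50 and with the mean over detected probes. In 3 settings, the processed signal under either scaling and the deposited table, Ankrd37 was past 1.5-fold lower with CA39 than CA77 (-0.60 to -0.64). Adm was so in 1 of them (-0.59). No interval can be given for any of these differences, and values within the tolerance do not show that 2 compounds act alike.

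Counted by the spot tolerance in place of the 1.5-fold limit, CA39 lay above both AR7 and CA77 by over the tolerance for 15 of 30 members, where 19.1% of genes above background on all arrays did. It lay below both for 2 of 30, Eno2 and Adm, where 21.1% of genes did. Both comparisons in each count share the CA39 array. The 15 comprised 9 glycolytic genes (Pfkl, Aldoa, Tpi1, Pgk1, Pgam1, Pkm, Ldha, Slc16a3 and Pdk1) and 6 others (Hif1a, Vegfa, Egln1, Car9, Kdm3a and Higd1a). With the processed signal and each array set to its 75th percentile the count was 10, with 17.1% of genes above background on all arrays. It was 16 (20%) with the processed signal after quantile normalization and 18 (20.4%) with the local median taken off. The 10 at the 75th percentile were Pfkl, Aldoa, Pgk1, Ldha, Slc16a3, Pdk1, Hif1a, Vegfa, Egln1 and Car9, and all of them were among the 15. Ldha counts in both through the probe used, while its brighter probe put CA39 0.07 above CA77, within the tolerance.

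**Figure D3:**
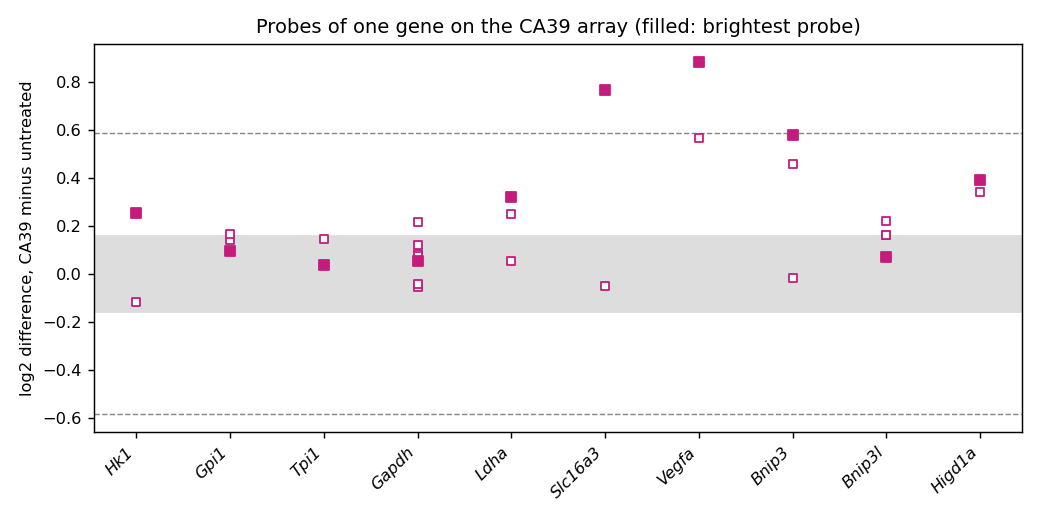
Log2 difference of the CA39 array from the untreated array (y axis) for each probe of the 10 genes with several probes measured on both arrays (x axis), with the brightest probe filled and the spot tolerance in grey. The probes of Vegfa and Higd1a agree on a higher value, while those of Slc16a3, Bnip3 and Hk1 spread over more than 0.36.

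Other genes of the same pathways were read from 2 further lists, 30 glycolysis genes and 34 hypoxia pathway genes that are not members. Of the 28 glycolysis genes compared in each case, 0 were past 1.5-fold with AR7. With CA39, 4 of 28 were higher and 0 lower, beside 6.91% and 3.94% of all genes. They were the fructose transporter Slc2a5 by 2.49, the lactate dehydrogenase subunit Ldhb by 0.81, the bifunctional phosphofructokinase regulator Pfkfb4 by 0.62 and the pyruvate dehydrogenase subunit Pdha1 by 0.59. With CA77, the hexokinase-like gene Hkdc1 was higher by 0.82 (1 of 28, beside 3.74% of all genes) and 0 were lower. Hkdc1 is dim, at 6.23 untreated and 7.05 with CA77. It read 6.71 with AR7 and 6.83 with CA39, both below background, so those differences were set to 0. Ldhb and Pfkfb4 lay below untreated with AR7 (-0.36 and -0.43) and CA77 (-0.45 and -0.52), so that CA39 was past 2-fold above both for each of them. Of 22 genes of this list above background on all arrays, CA39 lay above both compounds by over the tolerance for 8. It lay below both for 5 (Slc2a4, Hk3, Pdk4, Bpgm and Tigar), beside 19.1% and 21.1% of all genes above background on all arrays. Slc2a5 read 7.14 untreated, 7.47 with AR7, 9.63 with CA39 and 7.67 with CA77, highest again on the CA39 array.

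Among the other hypoxia pathway genes, CA39 again had the most past 1.5-fold, 8 of 32 compared higher and 1 lower, beside 6.91% and 3.94% of all genes. Vldlr entered this count only through the CA39 array. The largest measured was P4ha2, a collagen prolyl hydroxylase subunit, which read 9.22 untreated, 9.23 with AR7, 12.81 with CA39 and 9.24 with CA77. CA39 stood 3.59 above untreated, while AR7 and CA77 were within 0.03 of it. Among the others were the adenylate kinase Ak4 by 1.49, the mTOR inhibitor Ddit4 by 1.30, the collagen crosslinking enzyme Lox by 1.29, P4ha1 by 0.64, Narf by 0.64 and the lipoprotein receptor Vldlr by at least 1.83. The lower one was Arnt2, a partner subunit related to that of HIF-1, by 0.77. With AR7, Arnt2 and the secreted glycoprotein Stc2 were higher by 0.84 and 0.75, 2 of 31 beside 3.26% of all genes, and 0 were lower. With CA77, Lox was lower by 0.61, 1 of 31 beside 2.73%, and 0 were higher.

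Several of these genes make or crosslink collagen, and several fibroblast markers were also higher on the CA39 array. Col1a1, a collagen chain, was 1.06 above untreated with CA39, and 1.05 below with AR7 and 0.83 below with CA77. Fibronectin (Fn1) and the receptor Pdgfra were 1.47 and 1.19 above untreated with CA39 and within 0.22 of it with AR7 and CA77. The other fibroblast markers above background on all arrays ranged from -0.22 (S100a4) to 0.58 (Thy1) with CA39. One of them, Col3a1, was 0.51 above untreated with CA39, 0.73 below with AR7 and 0.63 below with CA77. Pdgfrb, above background with CA39 alone, was at least 2.90 above untreated there. Of the 8 fibroblast markers above background on all arrays, CA39 lay above both AR7 and CA77 by over the tolerance for 6. The share of all genes above background on all arrays was 19.1%. Among markers of other cell types, Epcam was at least 1.65 above untreated with CA39 and Des 0.82 below it, and Cdh5 was 0.62 above untreated with AR7. The part of these shifts in the values of the 33 genes was not tested.

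**Figure D4:**
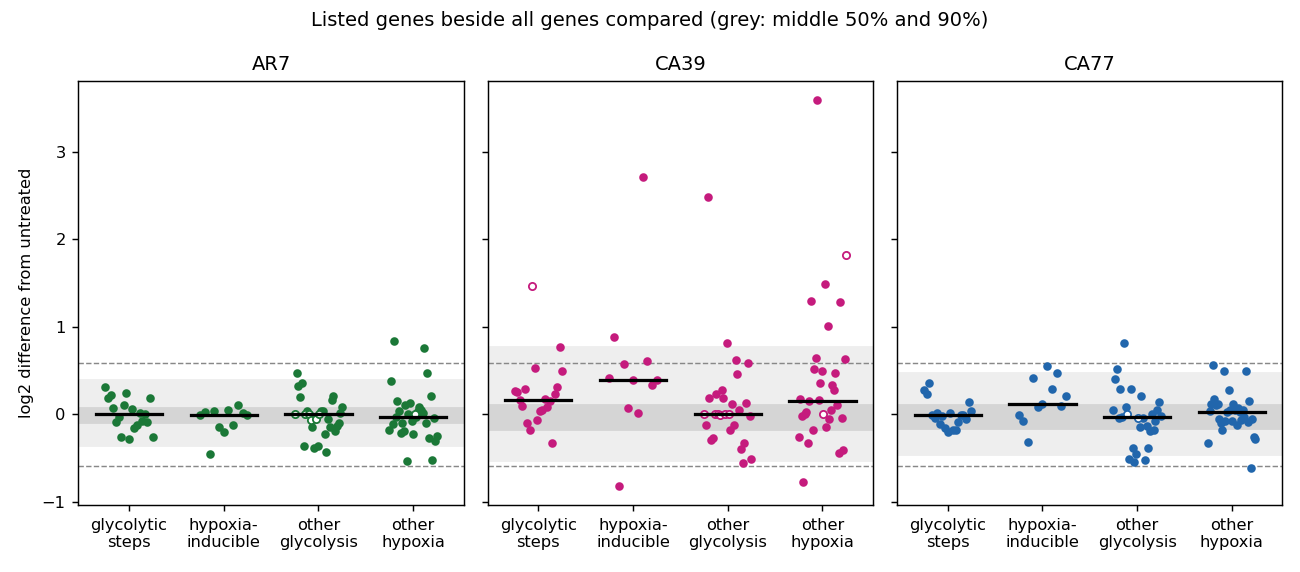
Log2 difference from the untreated array (y axis) for the 2 arms of the gene set and the 2 further lists (x axis), in a panel for each compound. Points are genes, open points are bounds or values set to 0 because the higher side was below background, black bars are medians and grey bands hold the middle 50% and 90% of all genes compared; the hypoxia-inducible arm has its median at 0.39 with CA39, against -0.01 with AR7 and 0.12 with CA77.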

How the data were processed

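The authors labelled total RNA of 4 cultures with Cy3, hybridised it to Agilent mouse arrays and read spots with Feature Extraction 10.7.3.1. In the deposited scanner data each of 62976 spots has a linear intensity, a local background and quality marks. These deposited marks are score values of the scanner software. The deposited series table equals background-subtracted intensity at every spot, although the authors' notes name RMA. Median intensities were corrected with normexp (limma 3.58.1, R 4.3.3, no offset), control spots were dropped, and the rest were quantile normalized and put on the log2 scale. Marked spots (142 to 328 an array) were left out, and 0 were saturated. RefSeq accessions (GRCm38.p6) named 27656 of 55681 probes, and the probe brightest by its mean of all arrays stood for a gene. Values below background were raised to the 1st percentile of detected signal (log2 5.88 untreated, 6.82 AR7, 6.87 CA39, 6.26 CA77), and differences whose higher side was below background were set to 0. No test was run, and the number of arrays limits the precision. The 14 genes given in full were those past 1.5-fold in any comparison and 9 set by name, and other pathway genes are named where past 1.5-fold with a compound. Members and lists were chosen with earlier results of these data known. The steps were tested on simulated data.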

Additional observations from a re-analysis of the deposited data

How the results depend on the processing

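No paired analysis was possible because each group holds 1 array. Under the alternatives planned, 60 of 66 recomputed counts of members past 1.5-fold stayed close to the values above. So did 59 of 60 medians and 357 of 381 gene differences. Close did not mean unchanged, as the count of 6 members with CA39 was taken as close when it became 5 or 8. Small differences could change sign, such as Gapdh with CA39, from 0.05 to -0.12 with the processed signal at the 75th percentile. The 6 members past 1.5-fold with CA39 kept their direction in every planned setting that held them. With the processed signal, quantile normalized, 1 member (Ankrd37, at 0.61) was past 1.5-fold with CA77 and 1 (Ankrd37, at 0.63) between CA77 and AR7. With the local median subtracted, the median of the other hypoxia-inducible genes with CA39 was 0.57, and 8 members were past 1.5-fold with CA39, Hif1a and Bnip3 joining the 6 (7 higher and 1 lower, beside 7.61% and 3.37% of all genes). In grid rows over 160, which leave out 12 members, Car9 among them, 2 members were past 1.5-fold between CA39 and AR7. A 2-fold limit left 2 members with CA39, 1 between CA39 and AR7 and 2 between CA39 and CA77, all higher with CA39, beside 3.69%, 3.72% and 3.98% of all genes. Car9 was in each of these counts, and the second member was Pfkfb3, above background with CA39 alone. The mean over detected probes gave Slc16a3 with CA39 as 0.36. The Pfkfb3 difference ran from 0.97 (offset of 50) to 2.64 (processed signal, quantile normalized), and was 2.07 with the lower floor or none. Egln1 between CA39 and AR7 was under 1.5-fold in 4 settings that changed the signal or its background correction. Car9 with CA39 ran from 2.55 to 2.78. Over all genes, 1928 were past 1.5-fold higher and 1100 lower with CA39, against 1899 and 2263 with the processed signal at the 75th percentile. That split was 908 and 405 against 1016 and 765 with AR7, and 1052 and 768 against 1339 and 1920 with CA77. The order of the compounds within a gene was examined under other signals and scalings after the values were seen. Members above untreated with every compound numbered 0 with the processed signal and with the deposited table at the 75th percentile, against 3. The cause was not tested.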
